A study of Mus musculus with 12 samples.

Results

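The genes described here are 10 protein-coding mouse genes of the 2-cell stage, namely Zscan4b, Zscan4c, Zscan4d, Zscan4f, Tdpoz1, Tdpoz3, Tdpoz4, Zfp352, Obox3 and Obox5, together with the chromosome stretches between relatives of the same family. They were chosen by name, with earlier results of these data known, out of 21523 protein-coding genes on chromosomes 1 to 19 and X. H4K20me3 was mapped by ChIP-seq in the mouse embryonic stem cell line dTKO, grown in medium with LIF and serum. Its genotype is Suv39h1fl/fl; Suv39h2-/-; Setdb1fl/fl. The cells received auxin (100 μg/ml) together with dTAG13 (0.5 μM), both ligands for induced protein degradation. Libraries were made at 0, 12, 24 and 48 h, 3 per time and 12 altogether. All groups carry the same genotype, and the labels do not say which proteins carry the degradation tags or how many clones the line stands for. What could be analysed is 1 list of 28210 H4K20me3 domains, each a chromosome, a start and an end on mm10 (GRCm38). It holds no signal and names no library or time, so change over time, library depth and replicate spread were out of reach, and no value here has an n of replicates or a test.

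H4K20me3, trimethylation of lysine 20 of histone H4, is a heterochromatin mark that SUV4-20H enzymes place downstream of H3K9me3 and HP1 proteins. The 2-cell-stage program is the set of genes that mouse embryos switch on when their own genome is first transcribed, and a small, changing fraction of cultured embryonic stem cells re-enters it for a short time. The double homeobox factor Dux activates many of its genes in the mouse, while TRIM28 and SETDB1 hold down the endogenous retroviruses that are transcribed along with them. Zscan4 proteins carry a SCAN domain and zinc fingers and are known in mouse embryonic stem cells for telomere maintenance. Tdpoz proteins carry a TRAF-type and a POZ domain, Obox genes encode homeobox proteins of oocytes and early embryos, and Zfp352 encodes a zinc finger protein first found in 2-cell embryos.

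The Zscan4, Tdpoz and Obox families are tandem copies, and their promoters show how alike or unlike the copies are. RefSeq promoter windows on GRCm38.p6, which run from 250 bases before to 50 bases after the annotated start, were found for 9 of the 10 genes, all but Tdpoz3. Among the 6 pairs of Zscan4 windows, identity in the aligned part was 95.3 to 99.3%. The 4 stretches of 100 bases that follow are given 5′ to 3′ to show the parts in which the copies differ and the parts in which they do not. Their positions are chr7:10905054-10905153 (minus strand), chr7:11005619-11005718 (plus), chr7:11166186-11166285 (minus) and chr7:11397812-11397911 (plus), in the order of the lines, and the capitals mark a match to a double homeobox core and the letters TATAAA.
Zscan4b: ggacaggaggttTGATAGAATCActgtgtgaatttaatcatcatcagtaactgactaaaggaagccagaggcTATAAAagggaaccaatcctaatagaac
Zscan4c: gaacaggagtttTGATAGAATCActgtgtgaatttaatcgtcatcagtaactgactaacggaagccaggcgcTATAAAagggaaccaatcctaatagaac
Zscan4d: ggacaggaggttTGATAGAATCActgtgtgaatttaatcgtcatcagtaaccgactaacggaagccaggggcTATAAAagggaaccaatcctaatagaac
Zscan4f: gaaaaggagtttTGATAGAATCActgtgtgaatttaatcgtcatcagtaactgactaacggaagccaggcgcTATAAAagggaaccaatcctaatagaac

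The double homeobox core was searched on both strands as the letters TGATT, any 2 bases, then the letters ATCA. All 4 Zscan4 windows held it, on the minus strand of the gene, and none of the other 5 windows of the 10 genes did. Of 26794 promoter windows of the same length, 63 (0.235%) held it. The letters TGATTCAA, added after the sequences were seen, stood in the windows of Zscan4c, Zscan4d and Zscan4f but not in that of Zscan4b, and in 0.627% of all windows. TATAAA, also added later, was in 14.2% of all windows. TGCACAC, a motif ascribed to Zscan4 proteins, was in none of the 9 windows and in 4.21% of all windows. These matches are descriptions of letters and not of binding.

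The Tdpoz1 window is shown beside that of Tdpoz9, a relative outside the 10 genes, because only the body of Tdpoz1 holds a domain. The windows were identical at 272 of 273 aligned positions (99.6%). The Tdpoz8 window was also like these, at 85.9% over 270 positions with Tdpoz1 and 84.6% over 292 with Tdpoz9. That of Tdpoz4 was unlike them: it aligned with Tdpoz1 over 33 positions alone, at 75.8%, and with Tdpoz9 over 9. The 100 bases given lie at chr3:93676331-93676430 and chr3:94054906-94055005, both on the minus strand, and the capitals mark the longest run that Tdpoz1 shares with Zfp352 (17 bases) and the letters TATATAA.
Tdpoz1: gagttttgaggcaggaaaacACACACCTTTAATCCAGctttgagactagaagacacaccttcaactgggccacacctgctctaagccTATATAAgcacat
Tdpoz9: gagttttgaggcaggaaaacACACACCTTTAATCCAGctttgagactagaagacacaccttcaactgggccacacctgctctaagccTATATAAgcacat

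The run of 17 bases was found, in either direction, in 5 of the 26794 windows, among them those of Tdpoz1, Tdpoz8, Tdpoz9 and Zfp352. The Zfp352 window, chr4:90218570-90218869 on the plus strand, contains it within an array of short repeats. It is printed whole, with capitals at each copy of the homeobox-type letters GGATTA read on the other strand. There were 9 copies, at steps of 20 or 21 bases, and no other window of the 26794 had as many.
Zfp352: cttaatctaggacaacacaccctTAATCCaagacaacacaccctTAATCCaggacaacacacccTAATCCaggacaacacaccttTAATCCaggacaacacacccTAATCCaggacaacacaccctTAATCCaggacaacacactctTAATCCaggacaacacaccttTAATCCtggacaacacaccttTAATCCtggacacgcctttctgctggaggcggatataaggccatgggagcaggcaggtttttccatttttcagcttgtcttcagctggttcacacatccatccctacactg

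GGATTA was also present once each in the windows of Tdpoz1 and Obox3, and in 7.13% of all windows. The letters TAATTG, another homeobox-type core, were in none of the 9 windows and in 8.17% of all. For Obox3 and Obox5, 100 bases around the letters TATATAA (in capitals, held by 932 of the 26794 windows) are shown, from chr7:15639778-15639877 (minus strand) and chr7:15750269-15750368 (plus), since the first of the pair holds a domain in its body and the second does not. The aligned parts of these windows were 92.6% identical over 175 positions.
Obox3: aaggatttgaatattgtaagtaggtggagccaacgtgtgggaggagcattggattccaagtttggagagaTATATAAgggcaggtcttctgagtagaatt
Obox5: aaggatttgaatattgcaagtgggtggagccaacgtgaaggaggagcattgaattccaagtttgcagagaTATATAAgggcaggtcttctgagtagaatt

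Of the 10 genes, 4 had an H4K20me3 domain in the gene body and 6 had none. The 4 were Zscan4b, Tdpoz1, Zfp352 and Obox3, 1 gene of each family, and each met a single domain. Among all protein-coding genes 14.1% met a domain by at least 1 base, and among the 7989 whose length lay between those of Tdpoz3, the shortest of the 10, and Obox3, the longest at 14.5 kb, the share was 3.99%. Over the 10 bodies together, 4.80 of 57.4 kb (8.35%) lay in domains, against 1.89% of the bases of all protein-coding bodies and 1.33% of those of like length. With 10 genes, chosen with results known and lying in 4 neighbourhoods, these shares are given side by side and were not tested.

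The domain in Zscan4b (chromosome 7, 10900740 to 10905050, minus strand) lay at the 3′ end of the gene. It ran from 10899301 to 10901550, so 0.811 kb of its 2.25 kb was inside the body, from 81.2% of the body's length to its end, and covered 18.8% of the gene. The 5′ side was also close to a domain, one of 11.8 kb (10907101 to 10918950) that lay 2.05 kb from the gene's start.

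Zfp352 (chromosome 4, 90218820 to 90225687, plus strand) had the same arrangement, with the domain over the end of the gene. That domain, from 90224551 to 90232500, was 7.95 kb wide. Its first 1.14 kb covered the gene from 83.4% of its length to the 3′ end (16.6% of the body), and the other 6.81 kb lay beyond. It was the only domain in the 4 bodies that was wider than the list's median of 3.00 kb.

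In Tdpoz1 and Obox3 the domain lay wholly within the gene. Tdpoz1 (chromosome 3, 93669333 to 93676283, minus strand) held a domain of 1.35 kb from 93672301 to 93673650, which was 19.4% of the body and lay at 37.9 to 57.3% of its length from the 5′ end. Obox3 (chromosome 7, 15625306 to 15639777, minus strand), at 14.5 kb the longest of the 10, held one of 1.50 kb from 15632551 to 15634050, at 39.6 to 49.9% of its length, or 10.4% of the body. Whether these stretches are exons or introns was not determined, since no exon positions were used.

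The covered share of the 4 genes (10.4 to 19.4%, median 17.7%) was above the upper quartile of all 3044 protein-coding genes with a domain, 11.5%, in 3 of 4 cases. It was below the median of the 319 such genes of like length, 24.4%, in all 4 cases. No promoter window met a domain in the 9 genes that have one in the table, where 1.52% of the windows of all protein-coding genes did. The nearest was that of Zscan4b, 1.80 kb from a domain, followed by Tdpoz1 at 2.58 kb and by Zfp352 and Obox3 at 5.68 kb each.

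The 6 genes without a domain were mostly near one. Tdpoz3 (chromosome 3, 93826020 to 93827117) was 1.63 kb from a domain of 11.2 kb, and Obox5 (chromosome 7, 15750370 to 15759274) ended 3.03 kb before a domain of 5.25 kb. Zscan4d (chromosome 7, 11161643 to 11166148) had its nearest domain at 11.3 kb, Tdpoz4 (chromosome 3, 93796398 to 93797510) at 17.4 kb and Zscan4c (chromosome 7, 11005745 to 11010547) at 17.8 kb. Zscan4f (chromosome 7, 11397915 to 11402318) was the most distant, at 53.0 kb. The median of the 6 gaps was 14.3 kb, beside a median of 53.0 kb and quartiles of 18.0 and 134 kb over the 18479 protein-coding genes without a domain. Thus 5 of the 6 lay nearer than the lower quartile and Zscan4f at the median.

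**Figure D1:**
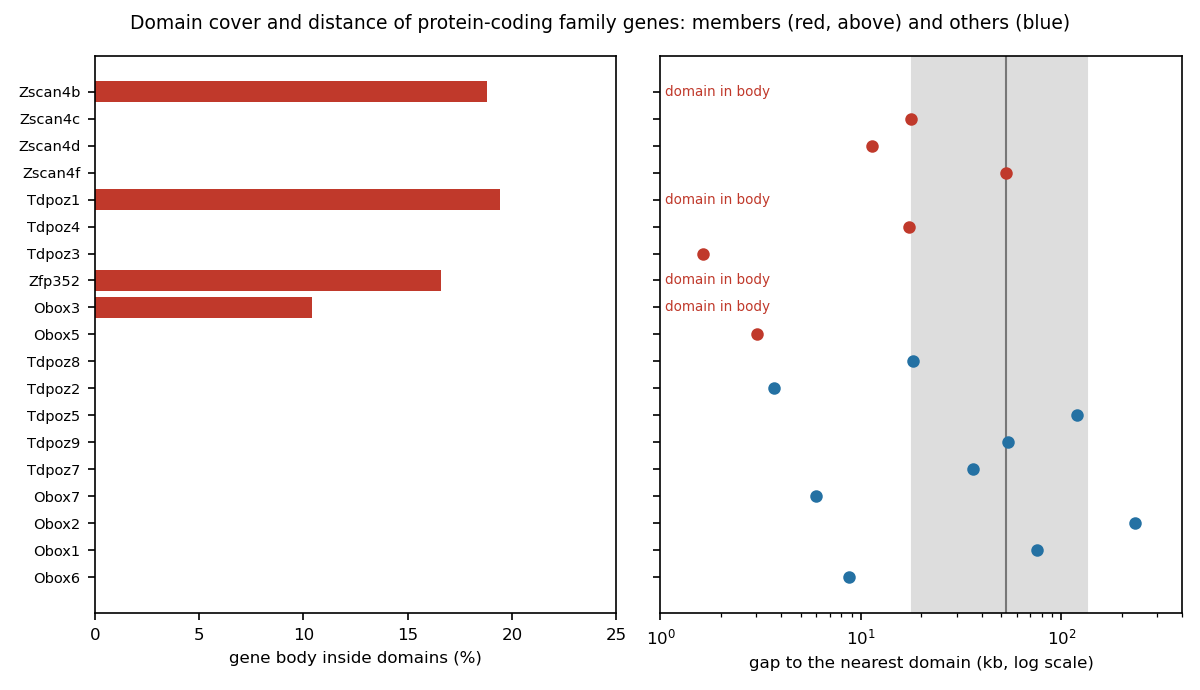
Percent of the gene body inside domains (left) and gap to the nearest domain in kb on a log axis (right). The 10 genes are red, and the other 9 protein-coding genes of their families within 1 Mb are blue. The grey band and line are the quartiles and the median of all protein-coding genes without a domain. The 4 bars reach 10.4 to 19.4%, and 5 of the 6 red points lie left of the band.

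How many of the 10 genes meet a domain depended on the width of the domains more than on the overlap asked for. The same 4 were found with at least 150 bases of overlap (14.0% of all protein-coding genes), with at least 10% of the body covered (3.91%), with domains closer than 5 kb joined (14.2%) and with 1 kb added on each side (15.5%). With 5 kb on each side Tdpoz3 and Obox5 joined them, for 6 of 10 against 20.6%. Counting no domain narrower than the median width, Zfp352 was the 1 gene left, and 8.42% of all protein-coding genes still met one.

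Around the bodies the domain cover was higher at a distance than in the genes themselves. Within 1 kb of the ends, 10.0% of the bases lay in domains, at 2 to 5 kb 18.2%, at 10 to 20 kb 15.2% and at 20 to 50 kb 31.4%. For all protein-coding genes the values were 1.66%, 2.67%, 4.28% and 4.13% at the same distances. At 20 to 50 kb, 9 of the 10 genes had some domain sequence. So did 8833 of all 21523 protein-coding genes and 3010 of the 7989 of like length. Windows of neighbouring genes overlap here, so a domain can count for more than 1 gene.

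**Figure D2:**
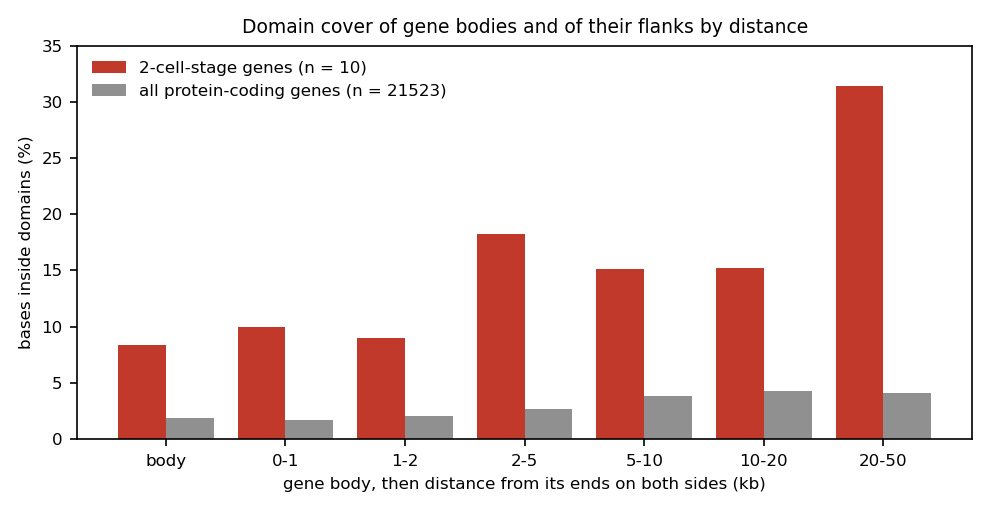
Percent of bases inside domains in gene bodies and in flanks on both sides by distance from the gene ends (kb), for the 10 genes (red) and for all 21523 protein-coding genes (grey). The red bars go from 8.35% in the bodies to 31.4% at 20 to 50 kb, and the grey bars stay between 1.66 and 4.28%.

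The Zscan4 cluster on chromosome 7 was crowded with wide domains that lay between the genes. From the first base of Zscan4b to the last of Zscan4f, 502 kb, there were 15 domains (29.9 per Mb), and 25.9% of the sequence lay inside them. Chromosome 7 as a whole, after its first 3 Mb, had 11.0 domains per Mb and 4.90%. The domains of the span had a median width of 8.25 kb, and 4 of the 15 were 10 kb or wider. Of the 5116 consecutive windows of the same length on chromosomes 1 to 19 and X, 33 (0.645%) had as much cover, with a median of 3.11%, and 227 (4.44%) had as many domains per Mb.

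Within that span the Zscan4 genes and pseudogenes held a smaller share of domain sequence than the stretches between them. Of the 26.9 kb in the 6 annotated copies, 0.811 kb (3.02%) lay in a domain, against 27.1% of the 475 kb between them. That share was not low for genes: 1.89% of the bases of all protein-coding bodies lay in domains, and 1.33% at like length. It rests on the 1 domain in Zscan4b. The stretch from Zscan4b to Zscan4c was 49.8% covered by 5 domains, including one of 21.9 kb, and that from Zscan4c to the pseudogene Zscan4-ps1 was 49.5% covered by 3. From Zscan4d to the pseudogene Zscan4e cover was 27.4%, with the widest domain of the cluster, 23.1 kb (11200501 to 11223600), 34.4 kb from Zscan4d. After the last of these 5 domains, from 11266651 to 11455350, none was listed over 189 kb, which includes Zscan4e and Zscan4f. Gaps at least that long made up 12.1% of all 28157 gaps between neighbouring domains. Here and below such shares count gaps and not bases. A long gap is likelier to hold a gene, so they do not give how often genes lie in one.

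With the outer copies Zscan4a and Zscan4-ps3 included, 29 domains covered 28.1% of 820 kb. The copies themselves were 8.95% covered, against 29.1% between them, and the higher value in the copies came with Zscan4a. Zscan4a, annotated as a transcribed pseudogene, was the most covered of all Zscan4 copies, with a domain of 2.85 kb over 59.1% of its body. It was the only copy besides Zscan4b with a domain, so 2 of 9 had one.

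**Figure D3:**
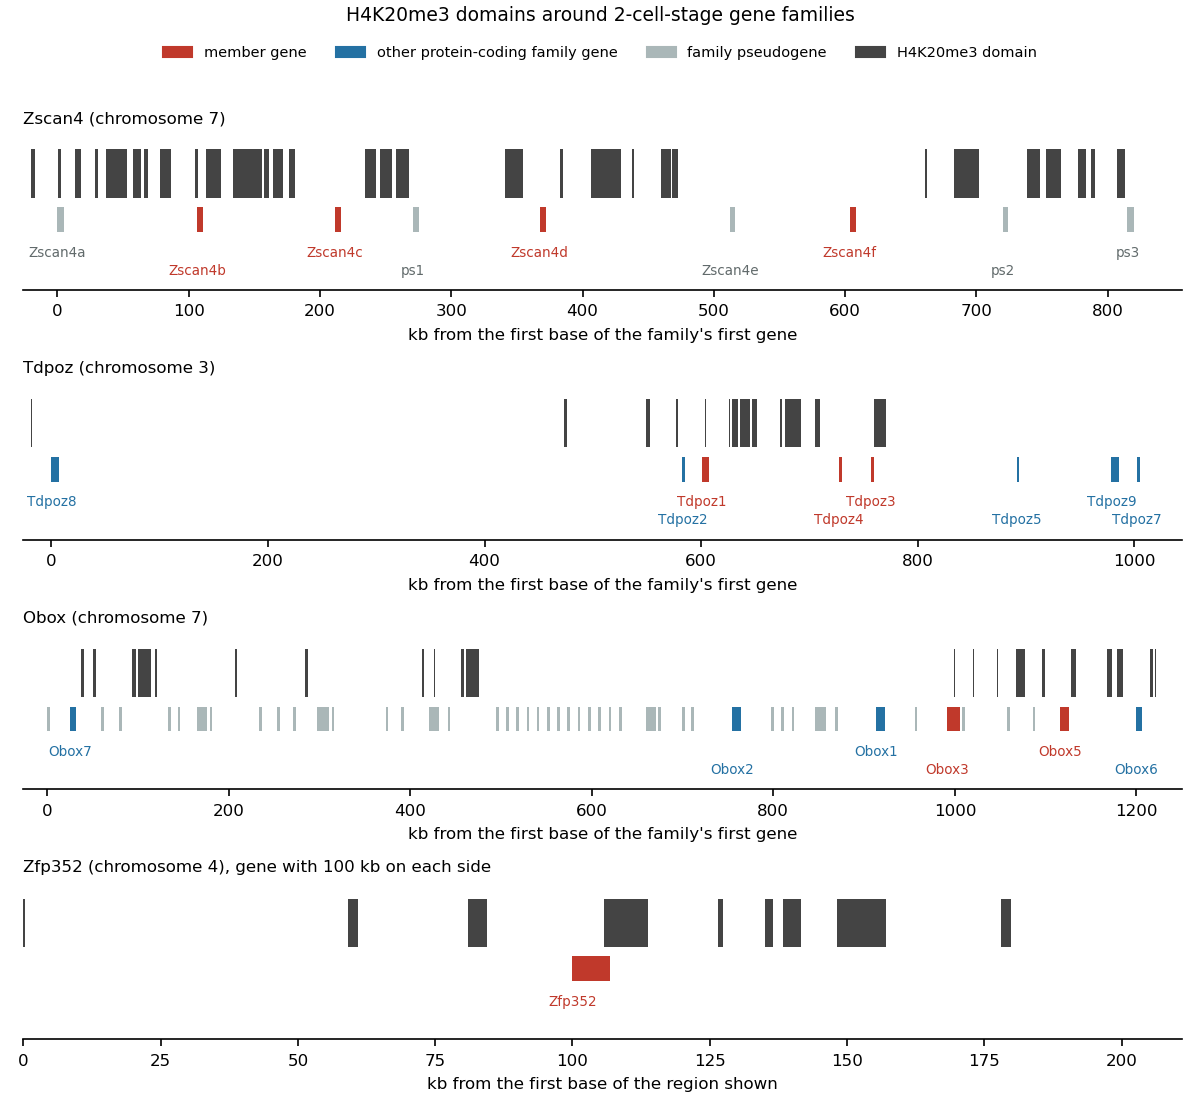
Domains (dark bars) above the 10 genes (red), other protein-coding relatives (blue) and family pseudogenes (grey), in kb from the first base of each region. In the Zscan4 cluster most domain sequence stands between the copies, with domains in Zscan4a and Zscan4b; the Tdpoz family has long stretches without a domain on its left and right, and the Obox family in its middle.

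The Tdpoz genes showed a split within the family on chromosome 3. From Tdpoz1 to Tdpoz3, 158 kb, there were 8 domains (50.7 per Mb) that covered 27.9% of the sequence, where chromosome 3 had 11.8 per Mb and 4.44%. As much cover was found in 199 of 16284 windows of that length (1.22%), and as many domains per Mb in 1.17%. Nearly all of it stood in 1 place, the 120 kb between Tdpoz1 and Tdpoz4, which were 35.5% covered by 7 domains of up to 14.7 kb. Between Tdpoz4 and Tdpoz3 there was none.

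Beyond the domain next to Tdpoz3, the 3 relatives Tdpoz5, Tdpoz9 and Tdpoz7 lay together in a stretch of 269 kb without a domain (93840001 to 94108800). Their gaps to the nearest domain were 120, 53.9 and 36.2 kb. Gaps as long made up 7.23% of all gaps by number, not by length. On the other side, Tdpoz2 was 3.69 kb from a domain. Tdpoz8, the outermost relative, was 18.1 kb from one but stood near the edge of a gap of 492 kb (93050701 to 93542700), the longest of the family, and 2.18% of gaps were as long. The stretch from Tdpoz8 to Tdpoz2 was 1.51% covered. None of these 5 had a domain. Over the whole family, 1004 kb, cover was 6.37%, and 22.3% of windows of that length had as much, so the density depended on the limits of the span.

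**Figure D4:**
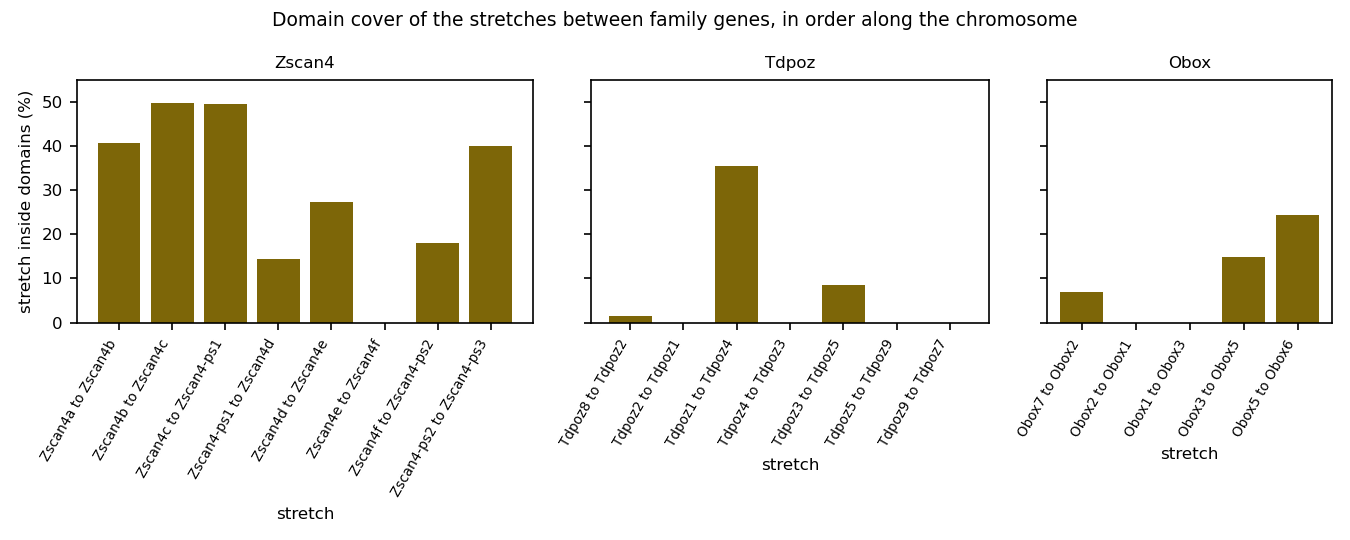
Percent of each stretch between neighbouring family genes that lies inside domains, in chromosome order; for Obox only protein-coding genes bound the stretches. The Zscan4 stretches reach 49.8%, the highest Tdpoz stretch is 35.5% and the highest Obox stretch 24.5%, and 7 stretches of the 3 families have no domain.

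For Obox the pair Obox3 and Obox5 stood at the edge of a long region without domains. Between them, 134 kb with both genes included held 5 domains (37.3 per Mb), mostly narrow, with a median width of 1.50 kb and cover of 13.3%, which 8.72% of windows of that length reached, while 5.87% reached the number per Mb. The stretch from Obox5 to Obox6 was 24.5% covered by 3 domains. On the other side of Obox3, no domain was listed from 15109801 to 15632550. This gap of 523 kb held 25 annotated Obox copies, including the protein-coding Obox1 and Obox2, at 75.7 and 234 kb from the nearest domain. Gaps as long were 534 of 28157 (1.90%) by number, which is not the share of sequence or of genes in them.

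Most Obox copies are pseudogenes. None of 35 copies named Obox4-ps met a domain, and 1 of 7 named Obox3-ps did, beside 9.62% of all pseudogenes, whose lengths were not matched. The 1 copy was Obox3-ps4, with 0.900 kb (8.45% of its body). Obox7, the first protein-coding Obox copy in chromosome order among those described, was 5.95 kb from a domain. Obox6, next to Obox5, was 8.72 kb from one. Over the 1206 kb of the family within 1 Mb of Obox3 and Obox5 cover was 7.20%, and 17.9% of windows of that length had as much.

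Zfp352 was treated as a lone gene, without a search for relatives, and was described with 100 kb on each side. There were 9 domains in these 207 kb (43.5 per Mb), with a median width of 3.15 kb and cover of 14.4%, beside 12.0 per Mb and 5.43% on chromosome 4. As much cover was found in 6.30% of 12417 windows, and as many domains per Mb in 1.88%. The next domain on the 5′ side ended 15.6 kb before the gene, and the widest of the region, 8.85 kb, began 41.3 kb after it.

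**Figure D5:**
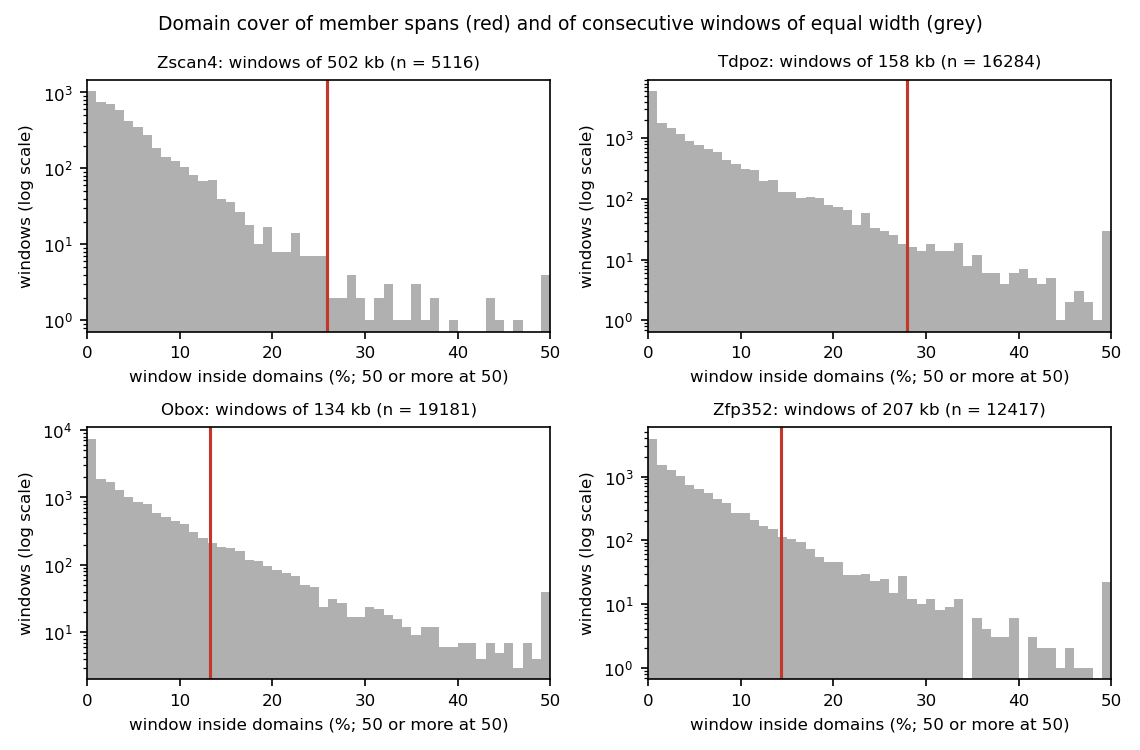
Number of consecutive windows on chromosomes 1 to 19 and X (log axis) by the percent of the window inside domains, for windows as long as each span; the red line is the span. The Zscan4 line, at 25.9%, and the Tdpoz line, at 27.9%, stand in the upper tail, and the Obox and Zfp352 lines, at 13.3 and 14.4%, stand further in.

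Copies with near-identical promoter windows stood both inside and outside the long gaps. Tdpoz5 and Tdpoz7, both inside the gap of 269 kb, were identical at 299 of 300 promoter positions, and Obox1 and Obox2, both inside the gap of 523 kb, at all 203 aligned positions. The promoter window of Zscan4f, in the gap of 189 kb, was 99.3% identical to that of Zscan4c over 277 positions. Zscan4c lay in a gap of 53.4 kb, 17.8 kb from the nearest domain. The promoter window of Tdpoz1, which had a domain in its body, was 99.6% identical over 273 positions to that of Tdpoz9, in the gap of 269 kb. Gene bodies and the sequence between genes were not compared. How reads that fit several copies were placed was not given in the sources used here, and the part of that step in these gaps was not tested.

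Relatives and other genes of the program are given next beside the shares over all genes. Of the 9 other protein-coding genes of the 3 families within 1 Mb of the 10 genes, none met a domain. Of 47 family pseudogenes within that distance, 2 did (Zscan4a and Obox3-ps4). Of 29 other genes in a list drawn up for the 2-cell program, all found in the gene table and 4 of them by an older symbol, 1 met a domain. That was Zfp809, with 0.750 kb (2.64% of its body), a zinc finger gene better known for silencing proviruses than as a gene of the 2-cell stage. Beside these counts stand the shares of 14.1% of all protein-coding genes, 3.99% of those in the length range of the 10 genes and 9.62% of 10229 pseudogenes. The 29 genes do not all lie in the length range of the 10 genes. Zfp809 itself, at 28.5 kb, is longer, and Gm5039 is a transcribed pseudogene. None of these shares is therefore matched to the count of 1 in 29 (3.45%), and nothing is read from it.

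The gaps of the other 28 had a median of 17.6 kb and ranged from 0.578 kb at Pramel17 to 300 kb at Duxf3, the gene of the activator Dux. Among the Usp17l genes, which encode ubiquitin proteases, gaps were 5.11 kb at Usp17lb to 24.8 kb at Usp17le. Tcstv3 was 7.11 kb and its relative Tcstv1 54.8 kb from a domain. In all, 16 of the 28 were nearer than 20 kb. The median over all protein-coding genes without a domain was 53.0 kb and the lower quartile 18.0 kb, or 20.0 kb in the length range of the 10 genes.

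Of 21 regulators of the program, 2 (9.52%) met a domain, beside 14.1% of all protein-coding genes, and nothing is read from the count. They were Rif1 (0.869 kb, 1.61% of the body), whose product represses 2-cell genes in mouse stem cells, and Setdb1. Setdb1, floxed in this line, had 6 domains over 18.7% of its body. The activators Dppa2 and Dppa4 were 41.3 and 14.8 kb from the nearest domain, and Trim28, the corepressor that recruits SETDB1, 33.8 kb.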

How the data were processed

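H4K20me3 ChIP-seq was made from 12 libraries of mouse embryonic stem cells, 3 at each of 4 times. Per the labels' protocols, 24 μg of mouse chromatin was mixed with 1.5 μg from Drosophila as a spike-in and precipitated with 3 μg of antibody. Bowtie2 2.3.4.1, SAMtools 1.1, deepTools and bedtools, and the builds mm10, GRCm38, mm9 and dm6, are named without roles, per the submitters' processing notes. The authors called the domains with RSEG, per the file name. Not given in the sources used here: its threshold, the libraries and times that entered, and the use of inputs. The deposited list has 3 columns of positions and no signal, so the depth is unknown and no sample enters a test. All but 1 domain lie on a grid of 150 bases.

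Starts were made 1-based. Gene bodies came from RefSeq GRCm38.p6 (no exons), with genes starting in the first 3 Mb left out, and promoter sequences from the matching RefSeq table. A gene met a domain when they shared at least 1 base; gaps are bases to the nearest domain edge. Spans run from the first to the last of the 10 genes in a family. Relatives are annotated genes with the family's name within 1 Mb of one of the 10 genes in that family. Windows of equal length start at 3 Mb. Promoters were aligned locally with Biopython 1.88 (match 2, mismatch -3, gap -5 and -2). The members, lists, spans and alternatives were chosen with earlier results of these data known, and the motifs TGATTCAA, TATAAA and TATATAA after the sequences were seen. Genes named are the 10, their relatives, and listed genes with a domain; other listed genes were named after their values were seen. The interval functions were tested on simulated data. Python 3.11.15, numpy 2.4.6, pandas 2.3.3 and matplotlib 3.10.9 were used.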

Additional observations from a re-analysis of the deposited data

How the results depend on the processing

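Of 41 alternatives to 11 values, 28 stayed within 1.5 times of the value reported and 13 moved by more. Without domains narrower than the median, 1 of the 10 genes met a domain and 1.98% of the summed bodies was covered, and the domains per Mb were 31.7 for Tdpoz, 14.9 for Obox and 24.2 for Zfp352. With domains closer than 5 kb joined they were 17.9 for Zscan4 and 25.4 for Tdpoz. The limits of the spans also changed the Tdpoz and Obox densities. With 100 kb on each side the Tdpoz span had 30.7 domains per Mb and 17.1% cover. The Obox span moved less with these flanks, to 29.9 per Mb and 12.3%. With all annotated relatives the Tdpoz span had 12.0 per Mb and 6.37%, and the Obox span 15.8 per Mb and 7.20%. The cover of the Zscan4 span was 25.0 to 29.1% in every alternative run. No paired analysis was possible because the list names no sample. A domain that the caller missed for want of depth, or because copies are alike, cannot be told from a stretch without the mark.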
